A study of Oryza sativa with 2 samples.

Results

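Chromosome 10 of rice carries a long nuclear copy of the chloroplast genome, and 68 loci inside it were examined among the 38511 loci listed in both libraries. They were chosen by identifier: LOC_Os10g followed by a locus number from 21190 to 21420. The first listed locus was LOC_Os10g21190 and the last was LOC_Os10g21418. The values come from 2 RNA-seq libraries of polyadenylated RNA from whole wild-type seedlings of Nipponbare, the japonica cultivar used as the reference for rice. The plants were 3 weeks old and grew on Yoshida nutrient solution with 10 h of light (800 μmol m-2 s-1) and 14 h of darkness. Both libraries form 1 group, numbered 1 and 2, and nothing in the labels says whether they came from separate plants, so their spread may be technical.

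Plastid DNA has moved into plant nuclear genomes repeatedly, and such copies can keep the order of the plastid genes while losing the setting in which those genes work. In the chloroplast, these genes encode core subunits of the photosystems, the cytochrome b6f complex, the ATP synthase and an NADH dehydrogenase-like complex, the large subunit of Rubisco, and parts of the plastid's own transcription and translation machinery. They are transcribed by plastid RNA polymerases, and a poly(A) tail on a plastid transcript is a mark for decay, whereas nuclear messenger RNAs carry a stable tail. A library of polyadenylated RNA therefore contains mostly nuclear transcripts together with some plastid RNA.

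Which plastid gene each locus mirrors is not given here. The supplied RefSeq table (assembly ASM3414082v1) matched 0 of the 68 identifiers and 1 of all 38511, so the loci are given by identifier, without names, and the label of the region could not be checked from annotation. The same table lists 102 protein-coding symbols for the plastid genome itself, 6 of them with more than 1 entry (ndhB, rpl2, rpl23, rps7, rps12 and rps15). It holds 75 of the 76 plastid symbols in 9 functional lists, from photosystem II to ribosomal proteins, and none could be tied to a locus of the insertion. Because the nuclear copy and the plastid genome are close in sequence, a read from one can align to the other. RNA from the insertion and RNA from the chloroplast therefore cannot be told apart in these values, and each level below is uncertain in that sense.

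Most loci of the insertion were listed at 0. Of the 68 loci, 51 (75.0%) were at 0 FPKM (fragments per kilobase of transcript, scaled to the depth of the library) in both libraries, where 31.7% of all listed loci were. The mean of both libraries was 1 FPKM or higher at 10 loci (14.7%), against 49.8% of all listed loci. The number was 10 in library 1 and 10 in library 2. The other 7 detected loci, those above 0 in at least 1 library, lay between 0.0717 and 0.954 FPKM on the mean of both libraries. The median over the 68 loci was 0 FPKM in each library, against 0.974 FPKM in library 1 and 0.885 FPKM in library 2 over all listed loci. An exact 0 can be a failed estimate in such files, so these loci are described as listed at 0 and not as untranscribed. The treatment of reads that match both the insertion and the plastid genome is also not known. Whether it adds to the zeros here, and so to the gaps from other loci given here and below, was not tested.

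**Figure D1:**
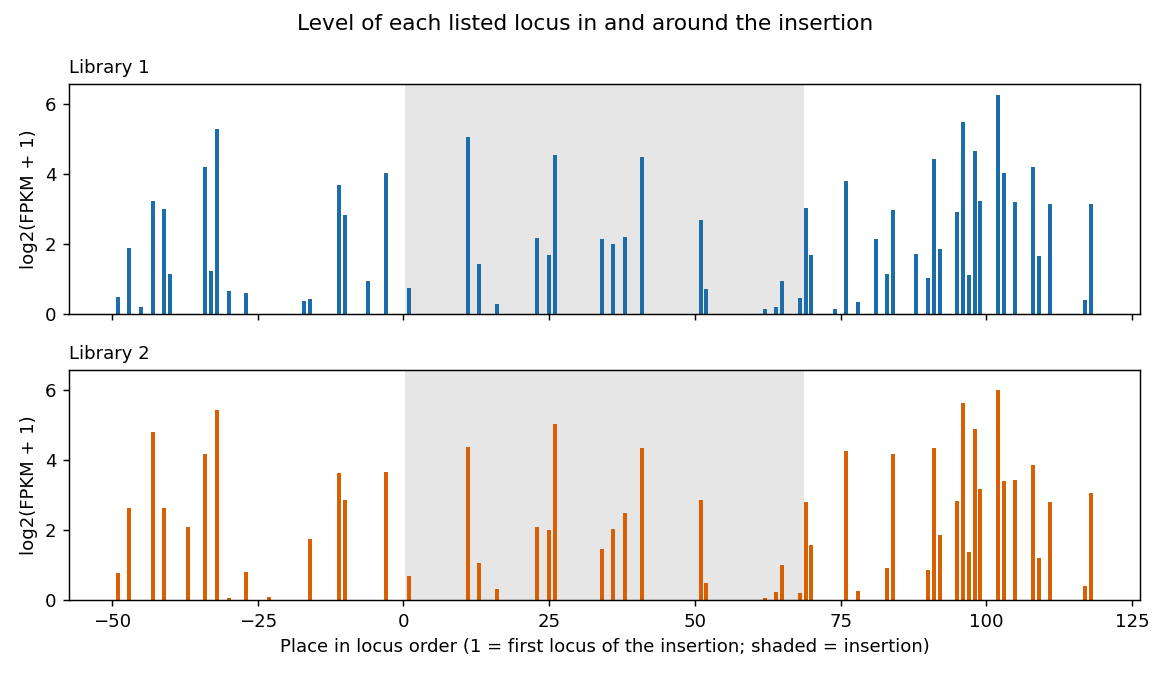
Level of each listed locus, as log2(FPKM + 1), in locus order for library 1 (top) and library 2 (bottom), with the 68 loci of the insertion shaded and 50 listed loci on either side. Within the shading, 17 loci stand above 0, the same 17 in both libraries, and 3 of them are well above the rest.

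A set of 3 loci carried most of the signal. LOC_Os10g21268 was at 22.1 FPKM in library 1 and at 31.8 FPKM in library 2, with a mean of 26.9 ± 6.9 FPKM (SD, n = 2 libraries here and below). LOC_Os10g21230 was at 32.2 and 19.6 FPKM, a mean of 25.9 ± 9.0 FPKM. LOC_Os10g21318 was at 21.4 and 19.5 FPKM, a mean of 20.5 ± 1.4 FPKM. These 3 loci stood in the upper part of the whole list: 11.2% of all listed loci had a higher mean than LOC_Os10g21268, and 14.5% had a higher mean than LOC_Os10g21318. The values of LOC_Os10g21230 overlapped those of both others, and the order of LOC_Os10g21268 and LOC_Os10g21230 was opposite in the 2 libraries. LOC_Os10g21318 lay below LOC_Os10g21268 in both. Together the 3 loci held 74.6% of the summed FPKM of the insertion in library 1 and 73.4% in library 2 (74.0% ± 0.8).

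A clear step separated them from the next locus. LOC_Os10g21360 was at 5.37 FPKM in library 1 and 6.22 FPKM in library 2, and LOC_Os10g21310 was at 3.59 and 4.66 FPKM. Neither library showed any locus of the insertion between 6.22 and 19.5 FPKM. LOC_Os10g21264 was at 3.49 and 3.25 FPKM, LOC_Os10g21308 at 2.99 and 3.07 FPKM, and LOC_Os10g21266 at 2.22 and 2.98 FPKM. LOC_Os10g21300 was at 3.40 and 1.77 FPKM, so that its range covered those of LOC_Os10g21308 and LOC_Os10g21266 and its place relative to them was not resolved by the spread. LOC_Os10g21236 was the lowest of the 10, at 1.68 and 1.11 FPKM, and below the other 9 in each library.

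**Figure D2:**
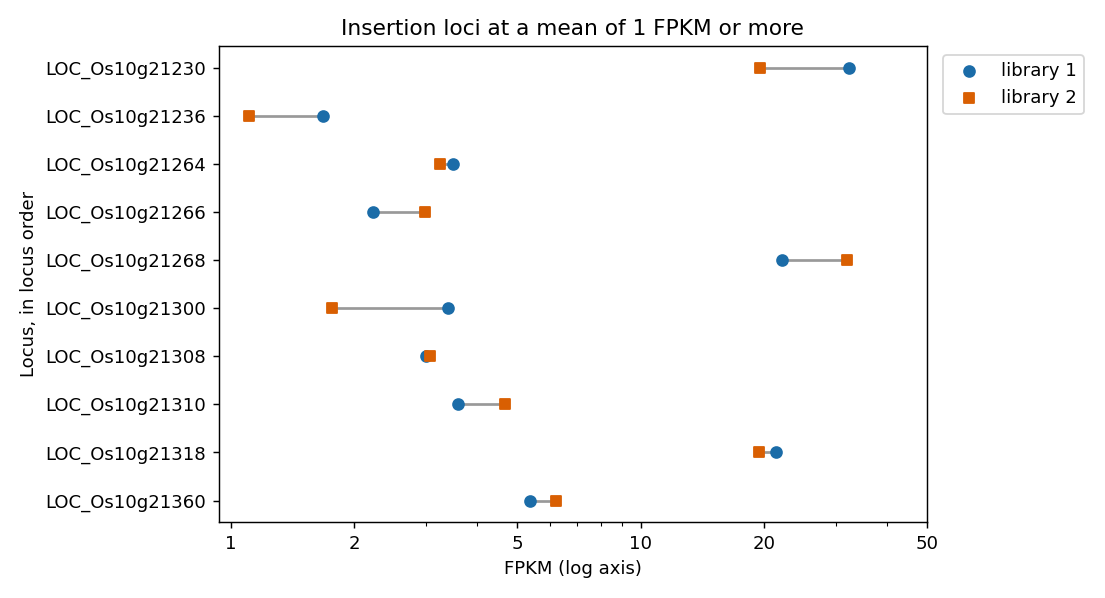
FPKM (log axis) of the 10 insertion loci whose mean reached 1 FPKM, in locus order, with circles for library 1, squares for library 2 and a line joining them. LOC_Os10g21230, LOC_Os10g21268 and LOC_Os10g21318 lie between 19.5 and 32.2 FPKM and the other 7 between 1.11 and 6.22 FPKM; 5 loci are higher in each library.

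The 17 detected loci were spread along the insertion and were mostly not adjacent. Loci at 0 formed 13 unbroken runs between them, the longest of 9 loci, and 6 of the 17 had a detected locus directly beside them. LOC_Os10g21266 and LOC_Os10g21268 were direct neighbours, yet LOC_Os10g21268 was about an order of magnitude higher in both libraries. LOC_Os10g21265, the listed locus before that pair, was at 0 in both libraries, although LOC_Os10g21264 on its other side was above 3 FPKM. In locus order, the first 23 loci held 5 detected loci and had a sum of 38.3 FPKM in library 1, against 24.8 FPKM in library 2. The middle 23 held 6, all at 1 FPKM or more, and summed to 55.7 and 63.8 FPKM. The last 22 held 6, of which LOC_Os10g21360 alone reached 1 FPKM, and summed to 7.56 and 7.98 FPKM. The middle of the insertion thus had the highest sum and its end the lowest in both libraries. Without LOC_Os10g21230, LOC_Os10g21268 and LOC_Os10g21318, the middle was still highest, at 12.2 and 12.5 FPKM, but the first section, at 6.09 and 5.23 FPKM, was then below the last.

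The libraries gave the same picture of which loci were detected. All 17 detected loci were above 0 in both libraries, and 0 were above 0 in only 1 of them. Among all listed loci above 0 in at least 1 library, 8.3% were at 0 in the other. In the flanks this was so for 7 of 19 detected loci before the insertion and 3 of 25 after it. With 17 loci, the share of 8.3% corresponds to few loci, so the count of 0 is not a result about the insertion. Spearman's rho between the libraries was 0.98 over the 17 detected loci, against 0.96 over all 26284 detected loci. Over the 10 loci at 1 FPKM or more it was 0.95, against 0.94 over all 19187 loci at that level. These coefficients are across loci of the same 2 libraries and carry no p-value, and the restriction to detected loci was added after the data were seen.

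At the 10 loci that reached 1 FPKM, the replicates differed by less than 2-fold. As log2(FPKM + 1), a scale that shrinks the differences of low loci, 0 of the 10 loci at 1 FPKM or more were 2-fold apart, where 6.75% of all loci at that level were. With 10 loci, that background share corresponds to less than 1 locus, so the count of 0 is not a result about the insertion. No p-value exists for a single locus with 1 library on each side. The log2 ratio of library 2 over library 1 ran from -0.69 at LOC_Os10g21230 to 0.51 at LOC_Os10g21268, with a median of -0.03 and an SD over loci of 0.41. The same measure over all loci at 1 FPKM or more had a median of 0.02 and an SD of 0.58. LOC_Os10g21300, at -0.67, was next to LOC_Os10g21230 in size, and its FPKM was 1.92 times higher in library 1. Of the 10 loci, 5 were higher in library 2 and 5 in library 1. Under 1 FPKM, the FPKM of LOC_Os10g21400 was 2.65 times higher in library 1, at 0.104 against 0.0393 FPKM, and that of LOC_Os10g21418 was 2.44 times higher. The 2 highest loci differed in opposite directions, so the sum over the insertion, at 101.6 FPKM in library 1 and 96.5 FPKM in library 2, differed less between the libraries than either locus did.

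The loci on either side were compared next, in locus order. The 50 listed loci before the insertion ran from number 20350 to 21180 and the 50 after it from 21460 to 22310. Before the insertion, 31 loci (62.0%) were at 0 in both libraries and 10 of the 50 reached a mean of 1 FPKM. After it, 25 loci were at 0 and 21 (42.0%) reached 1 FPKM. The insertion, with 75.0% at 0 and 14.7% at 1 FPKM or more, was thus closer to the loci before it than to those after it. The insertion averaged 1.46 ± 0.05 FPKM per locus, the loci before it 2.46 ± 0.29 and the loci after it 5.49 ± 0.14, and these 3 values kept their order in both libraries. Loci are not replicates and there is 1 group, so the gaps between the insertion and its flanks have no test.

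**Figure D3:**
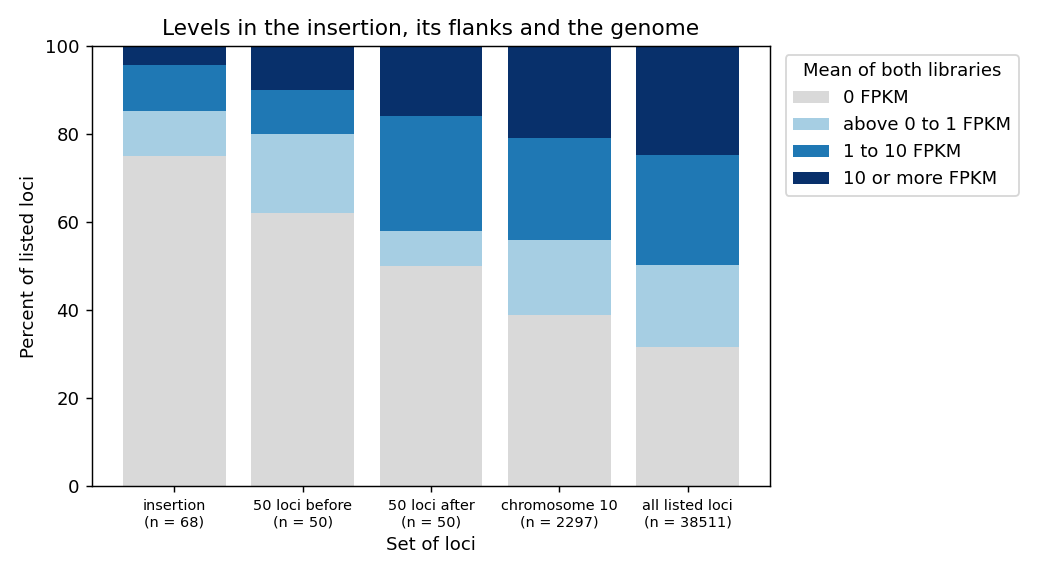
Percent of listed loci at a mean of 0, above 0 to 1, 1 to 10 and 10 or more FPKM in the insertion, the 50 loci before it, the 50 after it, chromosome 10 and the whole list. The bar of the insertion has the largest part at 0 of the 5 sets, at 75.0%, and the smallest at 10 FPKM or more, at 4.4%.

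The flanks also held higher single loci. The highest locus before the insertion was LOC_Os10g20630, at 38.3 FPKM in library 1 and 42.3 FPKM in library 2. The highest after it was LOC_Os10g22039, at 75.8 and 62.9 FPKM. Both were above every locus of the insertion in each library. At the edges, LOC_Os10g21180 directly before the insertion was at 0 in both libraries, and LOC_Os10g21190, its first locus, was at 0.692 and 0.612 FPKM. LOC_Os10g21418, its last locus, was at 0.372 and 0.152 FPKM, and LOC_Os10g21460 directly after it was at 7.23 and 6.01 FPKM. At the far edge, the level was thus higher outside than inside in both libraries.

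The insertion was then set against chromosome 10 as a whole. The chromosome was divided into blocks of 68 listed loci, counted outward from the insertion, which gave 32 other full blocks. The share of loci at 0 in both libraries ranged from 10.3% to 61.8% in the other blocks, with a median of 40.4%, and was 75.0% in the insertion. The share at 1 FPKM or more ranged from 22.1% to 72.1%, with a median of 41.9%, and was 14.7% in the insertion. The summed mean FPKM ranged from 134 to 1616 in the other blocks and was 99.1 in the insertion. The insertion thus lay outside the range of the other blocks on these 3 measures. It did not on the median level of a block, which was 0 FPKM in the insertion and ranged from 0 to 6.36 FPKM in the others. The 12 blocks before the insertion had 23.5% to 41.2% of loci at 1 FPKM or more, but their sums ran from 134 to 1419 FPKM. The block directly after it had 47.1% of loci at that level, above the median of the other blocks, and the second after it had 22.1%. The division into blocks was chosen after the values were seen, describes these 2 libraries and was not tested.

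**Figure D4:**
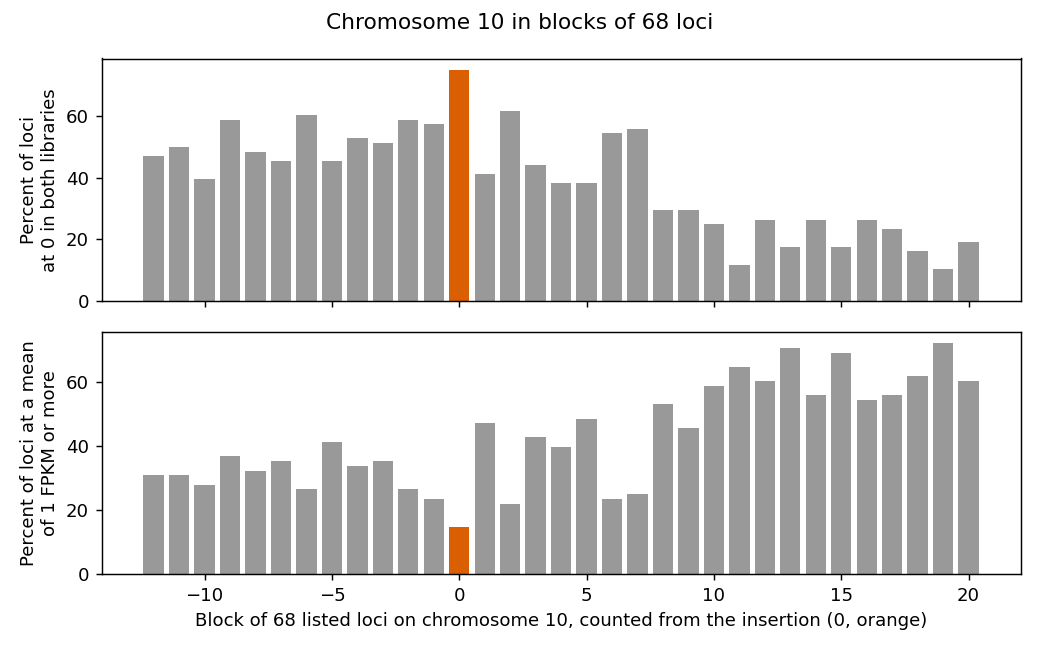
Percent of loci at 0 FPKM in both libraries (top) and percent at a mean of 1 FPKM or more (bottom) in full blocks of 68 listed loci along chromosome 10, numbered outward from the insertion (orange, block 0); incomplete blocks at the chromosome ends were left out. The orange bar is the highest of the 33 in the top panel, at 75.0%, and the lowest in the bottom panel, at 14.7%.

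The loci of the insertion also differed from their surroundings in how they are numbered. Their numbers advanced by a median of 2 from one listed locus to the next, against 10 on both sides. Only 11 of the 68 (16.2%) had a number ending in 0, against 50 of the 50 loci before, 44 of the 50 after and 91.7% of all other loci whose identifier names a chromosome. Of those 11 loci, 7 (63.6%) were detected and 4 (36.4%) reached 1 FPKM. Of the 57 with another ending, 10 (17.5%) were detected and 6 (10.5%) reached 1 FPKM. Among all other loci with a chromosome number, 68.9% of those with a number ending in 0 were detected and 66.5% of the rest. The shares of these loci that reached 1 FPKM were 50.05% with a number ending in 0 and 51.54% with another ending. The 7 detected loci ending in 0 included LOC_Os10g21230 and LOC_Os10g21360, while LOC_Os10g21268 and LOC_Os10g21318 had other endings. This split by number was chosen after the values were seen and has no test.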

How the data were processed

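Polyadenylated RNA of 2 seedling libraries was sequenced after NEBNext Ultra library preparation, per the labels' protocols. The authors deposited an FPKM value for each locus in each library, per the file headers, made with Cufflinks per the submitters' processing notes. The version, aligner, genome build, annotation, strand setting and treatment of reads with several matches are not given in the sources used. The deposited values sum to 670155 FPKM (library 1) and 651935 FPKM (library 2). The number of fragments is unknown, so no counting interval or detection floor is given.

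Loci were ordered by the number in their identifier, which was not checked against a genome. Expression means a mean of at least 1 FPKM. Ratios use log2(FPKM + 1). All 10 loci at that level are named, and the highest of each flank. Loci at the edges, beside named ones and under 1 FPKM were added after their values were seen. Counts, medians and SDs were computed with pandas 2.3.3 and numpy 2.4.6. The counts of loci in each set, at 1 FPKM or more and 2-fold apart were checked on simulated data. The medians and SDs were not. No test was run, because there is 1 group. The alternatives covered thresholds, pseudocounts, filters, scaling, flank width and single libraries. The loci and lists were chosen with earlier results of these data known.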

Additional observations from a re-analysis of the deposited data

How the results depend on the processing

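Of 47 alternatives, 39 left their result within 1.5 times the count or within the spread used for it. Some of the 39 could not have moved. Where most loci are at 0 in both libraries, neither scaling nor the use of 1 library changes a median of 0 FPKM. The 10 loci of the insertion at 1 FPKM or more became 16 at a threshold of 0.1 FPKM, 4 at 5 FPKM and 3 at 10 FPKM, against 63.3%, 34.5% and 24.8% of all listed loci. Their number was 10 to 10 with either library alone. The 51 loci at 0 were 51 with either library alone and with values under 0.1 FPKM counted as 0. The median of 0 FPKM became 1.99 FPKM over the 17 detected loci (the average of the medians of each library, 2.22 and 1.77 FPKM), by construction. The summed 99.1 FPKM became 149.8 FPKM with both libraries brought to one common sum. That sum was set above the sum of either library, so every locus above 0 rose and the increase is a change of unit. The insertion held 0.0152% of the summed FPKM of library 1 and 0.0148% of that of library 2, shares that this scaling cannot change. Median-ratio scaling gave 98.03 FPKM. The sum was 72.1 FPKM without LOC_Os10g21268, and ranged from 96.5 to 101.6 FPKM over single libraries. The count of loci 2-fold apart was 0 under all 6 alternatives run for it. A filter of 5 FPKM only removes loci, so it could not raise that count. Without a filter, the detected loci added were under 1 FPKM, too low to be 2-fold apart as log2(FPKM + 1). On FPKM alone, LOC_Os10g21400 and LOC_Os10g21418 were 2.65 and 2.44 times higher in library 1. The median log2 ratio ran from -0.05 (median-ratio scaling) to 0.06 (common sum), so it has no stable sign. The share of flank loci at 1 FPKM or more was 31.0% over both sides, 26.0% with 25 loci on each side and 28.0% to 32.0% with single libraries. No paired analysis was possible because both libraries belong to 1 group. The depth is unknown, so loci under 1 FPKM are the least certain.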
